A study of Mus musculus with 8 samples.

Results

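The transcripts described here are 10 genes that mark T lymphocytes and cytotoxic cells, listed by symbol: Cd3d, Cd3e, Cd3g, Cd2, Lck, Cd8a, Cd4, Nkg7, Gzma and Gzmb. They were read in RNA of microglia, the macrophages that live in brain and spinal cord. Of the 10 genes, 9 had a probe set (a group of probes read as 1 value) with a gene name among the 30751 named genes of the array, each with 1 such probe set, and Lck was not analysed here. Of the 9 measured genes, 7 entered the tests, which covered 18246 genes, and Cd2 and Cd4 did not pass the filter on dim genes.

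The study used C57Black/6J mice of 2 genotypes, named icKO (a conditional knockout) and control (labelled FL or F/F). Within each genotype 1 array was made in each of 4 states. The states were EAE (experimental autoimmune encephalomyelitis, an animal model of multiple sclerosis that T cells drive), EAE treated with the antirheumatic drug iguratimod (EAE IGU), EAE labelled p50, and naive. The control EAE IGU array is called FL in its title and wt in its source label, and the naive icKO mice carry the deletion without the disease. According to its title, the study made the knockout conditional and specific to oligodendroglia. The Cre driver, the ages, the meaning of p50, and the number of animals behind an array are not given in the sources used here. Because each group has 1 array, the spread in every test is that of differences that do not add up over genotype and state, and p-values speak only of the spread between these arrays.

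The T cell receptor recognises antigen, but the CD3 chains pass the signal into the cell, where the kinase Lck starts it. CD4 and CD8 are coreceptors that bind major histocompatibility complex molecules and bring Lck to the receptor. Cytotoxic T cells and natural killer cells store granzymes, serine proteases, in granules that they release onto their targets. In EAE, T cells that recognise myelin enter the brain and spinal cord.

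The promoters of Cd3e, Gzma and Gzmb are shown because these were the 3 genes at least 1.5-fold higher in the icKO EAE array than in the control EAE array, so they were chosen after their values were seen. The sequences are from RefSeq, build GRCm38.p6, run 5′ to 3′ along the gene from 250 bases before its start site to 50 bases after it, and all 3 genes lie on the minus strand. Capitals mark matches, on either strand, to TGTGGT (the core of the RUNX motif), CAGGAAG (ETS), TCACACC (T-box) or TGACTCA (AP-1).
Cd3e promoter, chr9:45009562-45009861: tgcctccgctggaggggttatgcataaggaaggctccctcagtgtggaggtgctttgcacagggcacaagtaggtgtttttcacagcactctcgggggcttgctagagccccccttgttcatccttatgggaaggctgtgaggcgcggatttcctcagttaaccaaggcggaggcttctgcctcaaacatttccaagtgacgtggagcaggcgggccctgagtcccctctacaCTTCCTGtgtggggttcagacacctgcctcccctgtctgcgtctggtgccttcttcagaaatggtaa
Gzma promoter, chr13:113100932-113101231: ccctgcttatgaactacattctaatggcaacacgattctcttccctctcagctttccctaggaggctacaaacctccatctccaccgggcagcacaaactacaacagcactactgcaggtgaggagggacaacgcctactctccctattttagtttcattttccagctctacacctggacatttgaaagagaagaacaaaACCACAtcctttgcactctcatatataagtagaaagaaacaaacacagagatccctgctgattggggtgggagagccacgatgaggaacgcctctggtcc
Gzmb promoter, chr14:56262285-56262584: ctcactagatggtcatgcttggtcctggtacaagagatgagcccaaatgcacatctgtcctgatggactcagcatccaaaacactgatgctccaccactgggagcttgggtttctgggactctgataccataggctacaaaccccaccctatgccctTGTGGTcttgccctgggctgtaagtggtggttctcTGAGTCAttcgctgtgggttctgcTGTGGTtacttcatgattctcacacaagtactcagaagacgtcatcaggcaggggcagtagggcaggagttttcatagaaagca
In Cd3e the ETS match lies at bases -17 to -11 from the start site, on the opposite strand. In Gzma the RUNX match is at -50 to -45, on the opposite strand. Gzmb holds RUNX matches at -93 to -88 and -34 to -29 on the strand printed, and an AP-1 match at -58 to -52 on the opposite strand. Promoters were found for 8 of the 10 genes, with 2 for Lck, and none was found for Cd2 or Cd4. Of these 9 promoters, 4 held the RUNX core (both granzymes, Nkg7 and 1 of Lck), against 16.8% of 32851 promoters of the same length. The ETS motif was in 4 of 9 (Cd3e, Nkg7 and both of Lck), against 13.3% of all promoters. The T-box motif was in 1 (Nkg7), against 3.98%, and the AP-1 motif in 1 (Gzmb), against 5.2%. The promoters of Cd3d, Cd3g and Cd8a held no match to these 4 motifs. The 3 CD3 genes are neighbours on chromosome 9, where the start sites of Cd3d and Cd3g are 1355 bases apart and those of Cd3d and Cd3e 27825 bases apart.

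Levels below are log2(intensity + 16), with 1 value per array. As a yardstick for dim signal, the 1228 olfactory receptor genes were used, since neither microglia nor lymphocytes are known to need them. Their 95th percentile, called the floor here, lay between 9.49 and 10.42 over the 8 arrays. All 72 of the 72 levels of the 9 genes were below it, from 6.95 to 9.20, and none reached the 90th percentile either. Within an array the 9 genes stood between the 12.4th and the 87.5th percentile of the olfactory receptor genes. Probe sets differ in their response, so a level under the floor does not show that a transcript was absent, and levels of different genes are not compared.

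**Figure D1:**
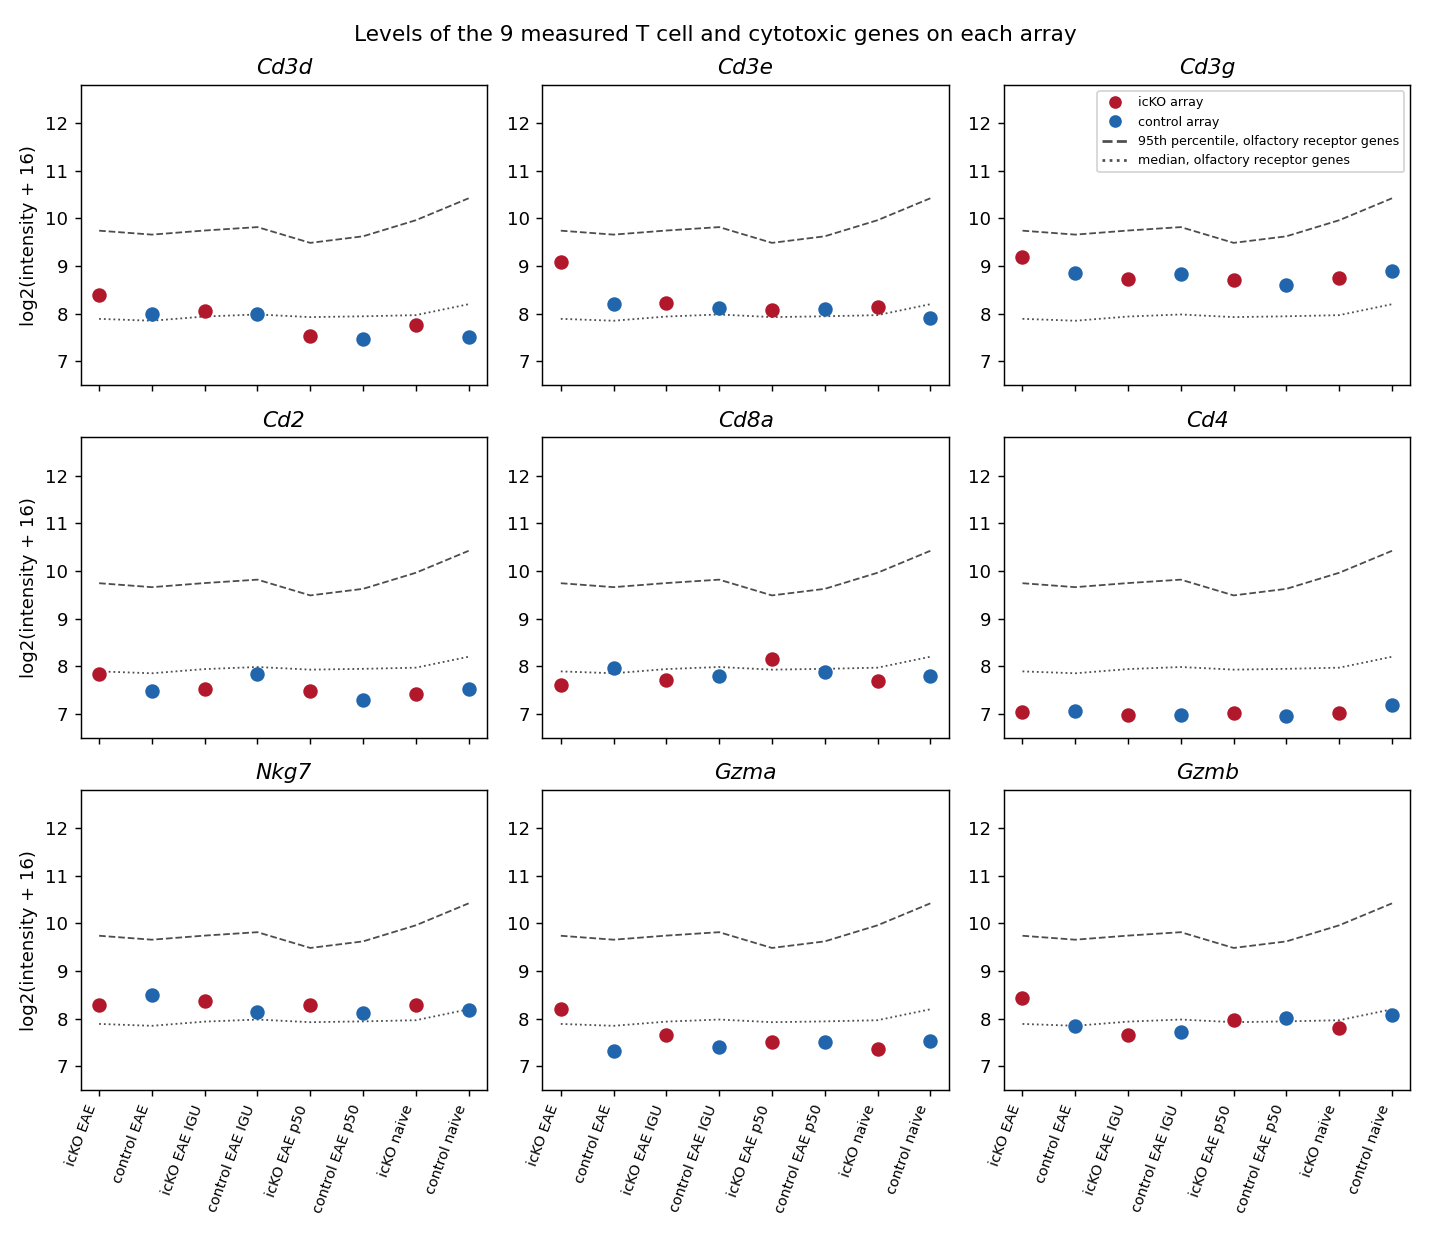
Level, log2(intensity + 16), of each of the 9 measured genes (1 panel each) on the 8 arrays, with icKO in red and control in blue; each point is 1 array. The dashed line is the 95th percentile and the dotted line the median of the olfactory receptor genes on that array, and all 72 points lie below the dashed line.

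The microglial identity of the samples was checked with a list of 12 microglial genes. Of the 11 that were named, 10 were above the floor on all 8 arrays, among them P2ry12 (12.67 to 14.17) and Cx3cr1 (18.15 to 18.43). No gene of the B cell, neuron, endothelial or oligodendroglial lists was above the floor on any array. Of the astrocyte list only Slc1a3 was above it, at 9.79 in icKO p50 and 10.06 in control p50. Monocyte genes, in contrast, reached it in EAE, under iguratimod and in p50. Their summed intensity was 27981 in icKO EAE and 27002 in control EAE, against 2734 in icKO naive and 3529 in control naive. It was 12444 (icKO) and 5440 (control) under iguratimod, and 4652 (icKO) and 3745 (control) in p50. The summed intensity of the neutrophil list was 102177 in icKO EAE and 894339 in control EAE, against 6689 in icKO naive and 26157 in control naive. It was 132239 (icKO) and 40948 (control) under iguratimod, and 13097 (icKO) and 6338 (control) in p50. The p50 arrays stood apart in sex-linked genes: Xist was 16.64 in icKO p50 and 15.90 in control p50, against 7.71 to 8.30 on the other 6 arrays, and the Y-linked Eif2s3y was 7.40 in icKO p50 and 7.29 in control p50, against 9.44 to 10.17. Every difference between p50 and another state therefore coincides with that sex-linked difference, and state and sex-linked difference cannot be told apart.

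Among the tested members, the CD3 chains Cd3e and Cd3d had the largest EAE minus naive differences, though neither passed the test. Cd3d, the delta chain of the receptor complex (gene 12500, chr9:44981769-44987052, GRCm38.p6), was at 8.40 in icKO EAE and 8.0 in control EAE, 8.05 (icKO) and 7.99 (control) under iguratimod, 7.54 (icKO) and 7.47 (control) in p50, and 7.77 (icKO) and 7.50 (control) in naive. Both EAE arrays and both IGU arrays were above both naive arrays. The share of all genes with that order is not given here, so nothing is read from it. The difference, EAE minus naive, was 0.56 ± 0.14 (SE, 8 arrays, 95% interval 0.22 to 0.91), with a limma adjusted p of 0.0969. Cd3d passed the filter on the icKO EAE array alone, so its entry into the test rested on the array where it was highest.

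Cd3e, the epsilon chain (gene 12501, chr9:44998735-45009663), read 9.09 in icKO EAE and 8.21 in control EAE, against 8.15 in icKO naive and 7.91 in control naive. The IGU arrays stood at 8.23 (icKO) and 8.12 (control), and the p50 arrays at 8.08 (icKO) and 8.10 (control). The icKO EAE array was 0.86 above the next highest array and the other 7 lay within 0.32 of each other. Its EAE minus naive difference was 0.62 ± 0.23 (95% interval 0.06 to 1.19, limma adjusted p = 0.222). Without the icKO EAE array that difference was 0.24, and without the control EAE array it was 1.0. Cd3e passed the filter on the control EAE, icKO EAE and icKO IGU arrays, and on no naive or p50 array.

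Cd3g, the gamma chain (gene 12502, chr9:44969572-44980431), had levels of 9.20 in icKO EAE and 8.86 in control EAE, against 8.76 in icKO naive and 8.89 in control naive. The IGU arrays were at 8.74 (icKO) and 8.84 (control), and the p50 arrays at 8.70 (icKO) and 8.60 (control). EAE and naive levels overlapped, and the EAE minus naive difference was 0.21 ± 0.16 (95% interval -0.17 to 0.59, limma adjusted p = 0.521).

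The surface molecules that T cells use to bind other cells spanned less than 1.5-fold over the arrays. Cd2, an adhesion molecule of T and natural killer cells (gene 12481, chr3:101275908-101287939), was at 7.83 in icKO EAE and 7.48 in control EAE, 7.52 (icKO) and 7.84 (control) under iguratimod, 7.48 (icKO) and 7.30 (control) in p50, and 7.43 (icKO) and 7.53 (control) in naive. Cd8a, the alpha chain of the CD8 coreceptor (gene 12525, chr6:71373427-71379171), was at 7.61 in icKO EAE and 7.97 in control EAE, 7.72 (icKO) and 7.80 (control) under iguratimod, 8.16 (icKO) and 7.89 (control) in p50, and 7.69 (icKO) and 7.80 (control) in naive. Cd4, the coreceptor of helper T cells (gene 12504, chr6:124864693-124888247), was between 6.95 and 7.19 on all arrays. Each of these genes had its highest level on a different array: control IGU for Cd2, icKO p50 for Cd8a, and control naive for Cd4. The whole range of Cd4 over the 8 arrays was 1.18-fold, the narrowest of the 9 genes. For Cd8a the EAE minus naive difference was 0.04 ± 0.17 (95% interval -0.38 to 0.46, limma adjusted p = 0.918), and it passed the filter on the icKO p50 array alone.

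Among the cytotoxic genes, Nkg7, a membrane protein of cytotoxic granules (gene 72310, chr7:43437138-43438246), was at 8.29 in icKO EAE and 8.49 in control EAE, 8.38 (icKO) and 8.14 (control) under iguratimod, 8.30 (icKO) and 8.12 (control) in p50, and 8.29 (icKO) and 8.19 (control) in naive. Its range was 1.30-fold and its EAE minus naive difference 0.16 ± 0.15 (limma adjusted p = 0.617). Gzma, granzyme A (gene 14938, chr13:113093824-113100981), read 8.20 in icKO EAE and 7.32 in control EAE, 7.67 (icKO) and 7.41 (control) under iguratimod, 7.52 (icKO) and 7.52 (control) in p50, and 7.37 (icKO) and 7.54 (control) in naive. The icKO EAE array was thus the highest and the control EAE array the lowest of the 8, a span of 1.85-fold. Gzmb, granzyme B (gene 14939, chr14:56258836-56262334), was at 8.44 in icKO EAE and 7.84 in control EAE, 7.66 (icKO) and 7.72 (control) under iguratimod, 7.97 (icKO) and 8.02 (control) in p50, and 7.81 (icKO) and 8.07 (control) in naive. For both granzymes the control EAE level was below the control naive level while the icKO EAE level was above the icKO naive level, and both passed the filter on the icKO EAE array alone. Their EAE minus naive differences, over both genotypes, were 0.30 ± 0.26 for Gzma and 0.20 ± 0.22 for Gzmb, with limma adjusted p of 0.578 and 0.669.

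Ordered by spread over the arrays, Cd3e had the widest range (2.27-fold), then Cd3d (1.90-fold), Gzma (1.85-fold), Gzmb (1.71-fold) and Cd3g (1.51-fold). Cd8a, Cd2, Nkg7 and Cd4 spanned less than 1.5-fold. The first 5 were the genes with their highest level on the icKO EAE array, which was the case for 15.4% of all tested genes. Of these 5, Cd3d, Gzma and Gzmb passed the filter on that array alone, so nothing is read from the count. The summed intensity of the 9 genes was 2836 in icKO EAE and 2186 in control EAE, and between 1936 and 2109 on the other 6 arrays. On that icKO EAE array the microglial list had its lowest mean level, 13.18, against 13.65 in control EAE. The monocyte list had its highest mean there, 10.28 against 9.88 in control EAE, with summed intensities of 27981 and 27002. The neutrophil list, in contrast, had a lower mean in icKO EAE, 11.12, than in control EAE, 13.31. The part of these shifts in the levels of the 9 genes was not tested. In RNA of a whole cell preparation, fewer cells of a type and less RNA per cell cannot be told apart.

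The effect of EAE was asked of each genotype, by EAE minus naive. No member passed the limma test over both genotypes (adjusted p under 0.05), against 3.72% of all tested genes, and 2 of 7 (Cd3d and Cd3e) had an unadjusted p under 0.05, against 19.2% of all tested genes. Nothing is read from that 2 of 7, because neither gene passed the filter on a naive array. Cd3d passed it on the icKO EAE array alone, and Cd3e on the control EAE, icKO EAE and icKO IGU arrays. In icKO mice 8 of the 9 genes were higher in EAE than in naive, with a median difference of 0.44, against 0.03 over all tested genes. No share of all tested genes is given for signs within 1 genotype, so nothing is read from the 8 of 9. Of the 8 genes, 4 were at least 1.5-fold higher: Cd3e by 0.94, Gzma by 0.83, Cd3d by 0.63 and Gzmb by 0.63. The share of all tested genes was 11.8%, and nothing is read from the count, because Gzma, Cd3d and Gzmb passed the filter on the icKO EAE array alone. None was 2-fold apart, against 5.73%. In control mice 4 of the 9 were higher and 5 lower, between -0.23 and 0.50 with a median of -0.02, and none was 1.5-fold apart, against 20.6% of all tested genes. The median of the olfactory receptor genes differed by -0.35 in that control pair and by -0.09 in the icKO pair. The central 95% of the olfactory receptor genes ran from -1.03 to 0.77 in the icKO pair, where Cd3e and Gzma lay above it, and from -1.58 to 0.38 in the control pair, where Cd3d (0.50) lay above it. Cd3d, Cd3e and Nkg7 were higher in EAE in both genotypes, 3 of the 7 tested members, against 34.7% of all tested genes, and nothing is read from that count. With arrays centred on the olfactory median, an alternative chosen after seeing the data, Cd3d alone of the members passed (0.78, limma adjusted p = 0.0336). In that setting 1671 genes passed over all genes, against 678 without it. The filter limit on Cd3d holds for this result too, so nothing is read from it.

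The genotype comparison asks whether icKO and control microglia differed. Averaged over the 4 states, icKO minus control was 0.30 ± 0.16 for Cd3e (95% interval -0.10 to 0.70, limma adjusted p = 0.881), 0.24 ± 0.18 for Gzma (adjusted p = 0.911) and 0.20 ± 0.10 for Cd3d (adjusted p = 0.881). No member passed, nor did any of the 18246 genes (0%), and at an unadjusted p under 0.05 the limma count was 0 of 7 members, against 5.44% of all tested genes. Within EAE, 6 of the 9 genes were higher in icKO than in control and 3 lower, with a median of 0.36, against -0.01 over all tested genes. No share of all tested genes is given for these signs, so nothing is read from them. None of the 9 was 2-fold apart, against 1.84%. The 3 at least 1.5-fold higher in icKO were Gzma (0.89), Cd3e (0.88) and Gzmb (0.60), which 5% of all tested genes also were; the filter limit on both granzymes holds for this count too. All 9 differences lay within the central 95% of the olfactory receptor genes, -0.78 to 0.98.

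Whether the genotype difference in EAE departed from that in the other 3 states was tested with a term of its own. It was 0.86 ± 0.26 for Gzma (95% interval 0.20 to 1.52), 0.76 ± 0.23 for Cd3e (0.19 to 1.34) and 0.72 ± 0.22 for Gzmb (0.15 to 1.29), each with a limma adjusted p of 0.823. It was 0.38 for Cd3g and 0.26 for Cd3d, and -0.37 for Cd8a and -0.38 for Nkg7. No member and no gene passed (0%), while Gzma, Cd3e and Gzmb had an unadjusted p under 0.05, as did 5.96% of all tested genes. Nothing is read from that count of 3, because Gzma and Gzmb entered the test through the icKO EAE array alone. The same term for naive, IGU and p50 passed for 0 of 7 members, also at an unadjusted p under 0.05 by limma, where 5.48%, 8.25% and 2.34% of all tested genes lay.

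**Figure D2:**
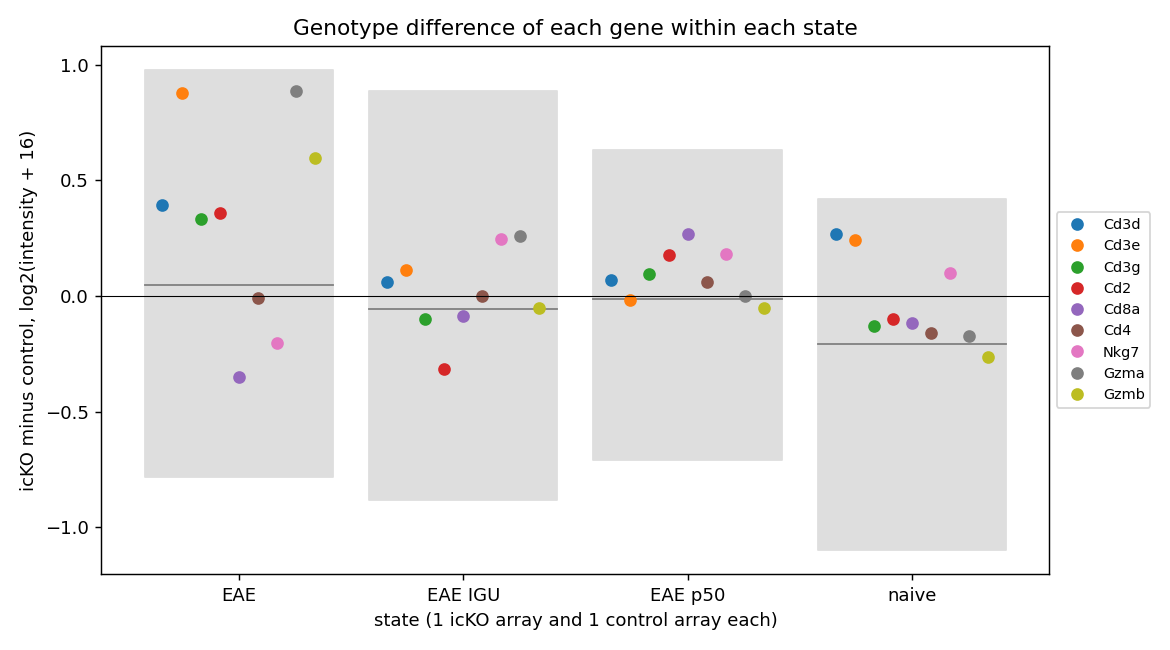
Difference, icKO minus control, in log2(intensity + 16) for each of the 9 genes (coloured points) in each state, 1 array per genotype. The grey band holds the central 95% of the olfactory receptor genes and its line their median; in EAE the points run from -0.35 (Cd8a) to 0.89 (Gzma), inside the band.

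In the other states no member was 1.5-fold apart between the genotypes, and whether this differed from EAE is given by the test above. In naive mice the icKO minus control differences were between -0.26 and 0.27 with 3 of 9 above 0, and none reached 1.5-fold, against 10.5% of all tested genes. Under iguratimod they were between -0.32 and 0.26, again with none at 1.5-fold, against 13.9%. In p50 they were between -0.05 and 0.27, with 7 of 9 above 0 and none at 1.5-fold, against 3.34%. Nothing is read from the counts above 0, for which no share of all tested genes is given.

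The effect of iguratimod was asked by EAE IGU minus EAE, which uses the EAE arrays that also enter EAE minus naive. No tested member passed (limma; 0% of all tested genes passed, and 0 of 7 members had an unadjusted p under 0.05, against 8.51%). Cd3e gave -0.48 ± 0.23 (95% interval -1.04 to 0.09, adjusted p = 0.637) and Gzmb -0.45 ± 0.22 (-0.99 to 0.09, adjusted p = 0.641), and the other 5 lay between -0.24 and -0.03. In icKO mice Cd3e (-0.86) and Gzmb (-0.77) were at least 1.5-fold lower under iguratimod, 2 of 9 genes, against 6.75% of all tested genes. Cd3d, Gzma and Gzmb passed the filter on the icKO EAE array alone, so nothing is read from their signs or from this count. In control mice none was 1.5-fold apart, against 13.9%. Against naive, IGU gave 0.39 for Cd3d (limma adjusted p = 0.400) and between -0.25 and 0.14 for the other 6 tested genes. There, 0.00548% of all tested genes passed, and 1 of 7 members had an unadjusted p under 0.05, against 10.9%. That member was Cd3d, so nothing is read from this 1 of 7 either.

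None of the CD3 chains passed the test of p50 against EAE. The p50 minus EAE difference was -0.69 ± 0.14 for Cd3d (95% interval -1.03 to -0.35, limma adjusted p = 0.0672), -0.56 ± 0.23 for Cd3e and -0.38 ± 0.16 for Cd3g (adjusted p = 0.258 for both). Cd8a gave 0.23 ± 0.17 (adjusted p = 0.513), the one difference above 0 among the 7. No member passed, against 2.7% of all tested genes, and 1 of 7 (Cd3d) had an unadjusted p under 0.05, against 19.5%. Cd3d, Gzma and Gzmb passed the filter on the icKO EAE array alone, and Cd8a on the icKO p50 array alone. Cd3e passed it on the control EAE, icKO EAE and icKO IGU arrays, and on no p50 array. Nothing is therefore read from the signs of these genes or from that 1 of 7. Cd3d, Cd3e, Cd3g, Cd2 and Cd4 were lower in p50 in both genotypes, 5 of 9 genes. Among the 7 tested members the count was 3, against 37.4% of all tested genes, and nothing is read from it. In icKO mice Cd3e was lower by a log2 difference of -1.01, the one member past 2-fold in any pair of arrays, against 7.37% of all tested genes, and it was under 2-fold with a pseudocount of 64 or quantile normalization. Against naive, the p50 differences were between -0.17 and 0.28, and 0 of 7 passed by limma, against 0.795%, with 0 of 7 at an unadjusted p under 0.05, against 20.5%.

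**Figure D3:**
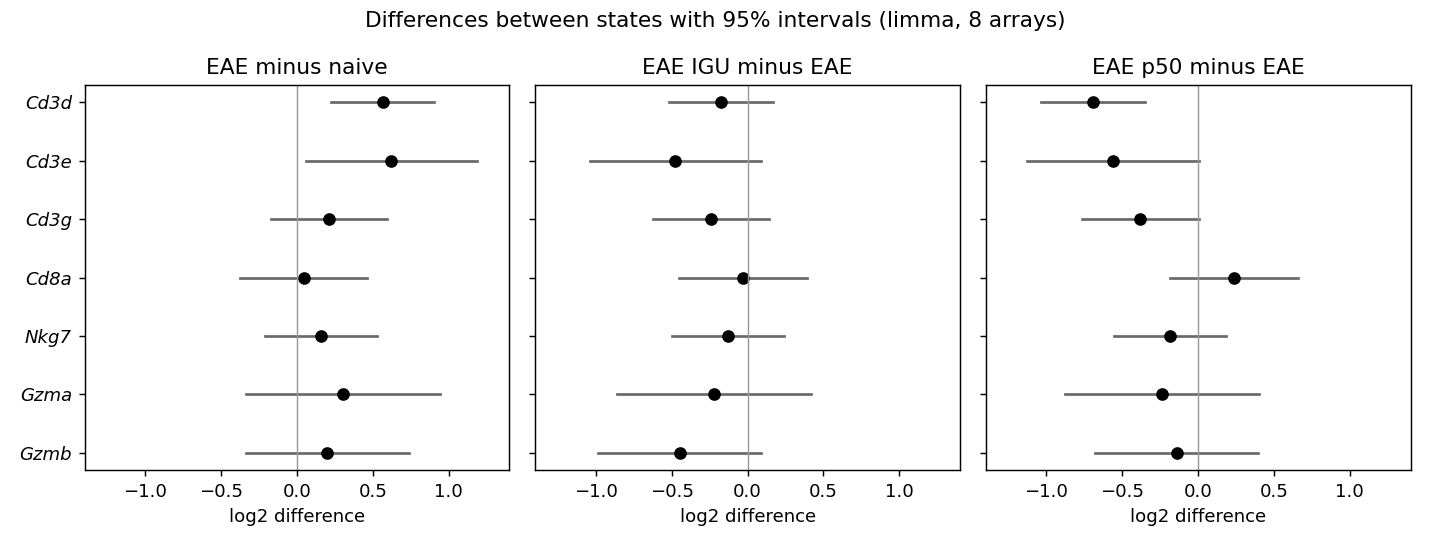
Log2 difference (point) with its 95% interval (line) for the 7 tested genes in EAE minus naive, EAE IGU minus EAE and EAE p50 minus EAE, from limma over 8 arrays. The interval of Cd3d in p50 minus EAE, -1.03 to -0.35, and those of Cd3d and Cd3e in EAE minus naive lie on one side of 0, and none of these passed after adjustment over all genes. Cd3d entered the tests through the icKO EAE array alone, and Cd3e through the control EAE, icKO EAE and icKO IGU arrays.

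How the 9 genes varied together is given as a description over 8 arrays, which share the arrays' own scale. Of the 36 pairs of genes, 24 had a positive Pearson correlation, with a median of 0.21 and 7 over 0.7. The closest pairs were Cd3e with Gzma (0.86), Cd3d with Cd3e (0.81), Cd3e with Cd3g (0.79) and Gzma with Gzmb (0.76), and Cd3d with Cd8a was lowest (-0.57). Without the icKO EAE array, an alternative chosen after seeing the data, 14 of 36 were positive, with a median of -0.11 and 1 over 0.7.

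The genes whose level followed the mean of the 9 genes most closely were taken from 9485 tested genes. The 10 closest were Slc16a10, Arg1, Anpep, Txn2, Slc7a2, Ttll5, C1ra, Panx1, Cd93 and C1rb. Their Pearson r was between 0.96 and 0.99 over 8 arrays and between 0.61 and 0.90 over the 7 arrays without icKO EAE. Slc16a10, Anpep, Slc7a2, Panx1, Cd93 and C1rb passed the filter on the icKO EAE array alone, so nothing is read from their likeness. Arg1, the arginine-hydrolysing enzyme arginase 1, was at 11.32 in icKO EAE and 8.50 in control EAE, and between 7.88 and 8.69 on the other arrays. Anpep, the membrane aminopeptidase N, was at 9.59 in icKO EAE and 8.12 in control EAE, and between 7.42 and 7.93 elsewhere. Slc16a10, an aromatic amino acid transporter, was at 8.22 in icKO EAE and 7.81 in control EAE, and between 7.60 and 7.74 elsewhere. All 3 had their highest level on the icKO EAE array, the only array on which Anpep and Slc16a10 passed the filter.

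**Figure D4:**
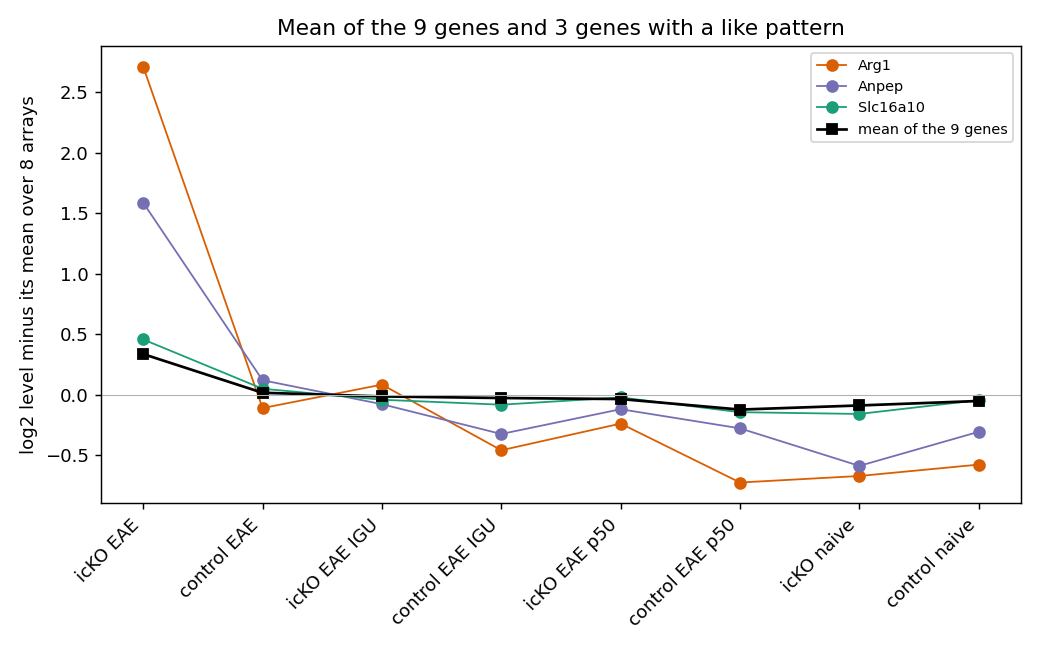
Log2 level minus its mean over the 8 arrays for the mean of the 9 genes (black squares), Arg1, Anpep and Slc16a10; each point is 1 array. The mean of the 9 genes is 0.33 above its own mean on the icKO EAE array and between -0.12 and 0.01 on the other 7.

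Other genes of T and cytotoxic cells were taken from 4 lists with 87 genes, of which 75 were named. Of these, 66 were near the floor on all 8 arrays. They included, chosen for their roles after their values were seen, Ifng, the type 1 helper cytokine (7.06 to 7.35), Il17a, the type 17 cytokine (6.87 to 7.12), Prf1, the pore-forming protein perforin (6.98 to 7.45), and Zap70, the kinase that follows Lck (7.12 to 7.42). The 9 that stood above the floor on at least 1 array were Lcp2, Lag3, Ccr7, Il7r, Klf2, Cd69, Srgn, Ccl5 and Klrb1c. Of the 33 tested genes of these lists, none passed in any comparison by limma, and at an unadjusted p under 0.05 there were 7 of 33 in EAE minus naive, against 19.2% of all tested genes, and 7 of 33 in p50 minus EAE, against 19.5%. The median of the 33 in EAE minus naive was 0.04, against 0.01 over all tested genes.

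Which cells the RNA of any gene of these 4 lists came from was not tested. Receptor signalling genes gave 9 tested of 28, led by the adaptor Lcp2, which myeloid cells use too, at 0.50 ± 0.15 in EAE minus naive (limma adjusted p = 0.146). The helper list gave 4 tested of 20, led by the inhibitory receptor Lag3 (0.96 ± 0.40, adjusted p = 0.271). The homing list gave 9 tested of 16, among them the integrin Itgal (0.89 ± 0.18, adjusted p = 0.0582), the activation marker Cd69 (1.61 ± 0.69, adjusted p = 0.283) and the egress receptor S1pr1 (-0.62 ± 0.13, adjusted p = 0.0654). Cd69 was at 10.52 in icKO EAE and 8.19 in control EAE, 9.37 (icKO) and 7.66 (control) under iguratimod, 8.62 (icKO) and 8.06 (control) in p50, and 7.38 (icKO) and 8.12 (control) in naive. It was above the floor on the icKO EAE array alone, and in each EAE state the icKO array was above the control array. The cytotoxic list gave 11 tested of 23, led by the chemokine Ccl5 (0.83 ± 0.27, adjusted p = 0.170) and the granule proteoglycan Srgn (0.66 ± 0.15, adjusted p = 0.0785). In p50 minus EAE the smallest adjusted p of the 4 lists was that of the chemokine receptor Ccr7, at -0.60 ± 0.12 (adjusted p = 0.0690).

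**Figure D5:**
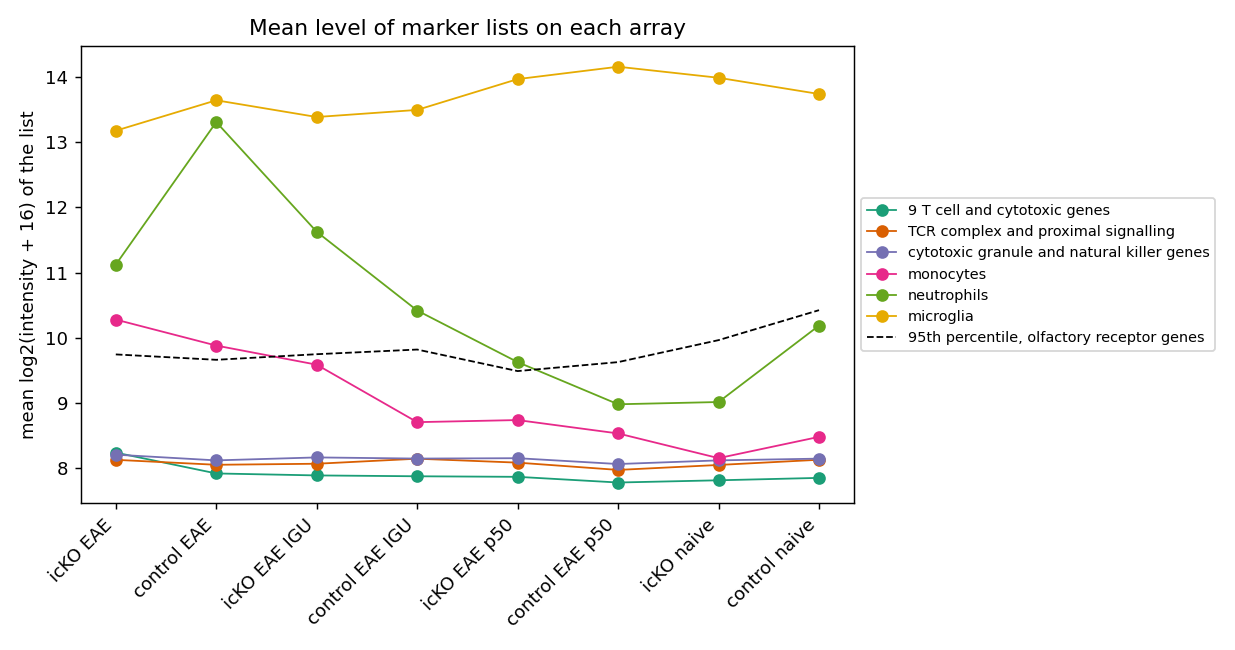
Mean log2(intensity + 16) of the named genes of 6 lists on the 8 arrays, with the 95th percentile of the olfactory receptor genes dashed; each point is 1 list on 1 array. The 9 T cell and cytotoxic genes lie between 7.78 and 8.23, the monocyte list reaches 10.28 in icKO EAE, and the microglial list lies between 13.18 and 14.16.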

How the data were processed

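RNA of microglia was hybridised to Affymetrix mouse whole-transcript arrays, 1 array for each of 8 groups. The authors' deposited table holds linear intensities for 65956 probe sets, made with Affymetrix Expression Console, per the submitters' processing notes. Summarisation and normalization are not given in the sources used here. Array medians were 243 to 269, and the arrays were used as deposited. Their small number limits precision.

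A platform annotation, updated through RefSeq GRCm38.p6, gave 31230 probe sets 1 gene, 1520 several and 33206 none; 1473 symbols were updated. The brightest probe set stood for a gene. Log2(intensity + 16) of the deposited values was fitted with limma 3.58.1 in R 4.3.3, with state and genotype as additive terms (3 residual degrees of freedom), or with a further term for icKO in 1 state (2). Genes that exceeded an array's 50th percentile over named probe sets, on any array, were tested, with Benjamini-Hochberg adjustment over all 18246 at 0.05. Of the 7 members tested, 4 passed that filter on 1 array only. The script was tested on simulated data. Figures and promoters were handled in Python 3.11.15.

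The members, lists and tests were chosen with earlier results of these data known. Named genes are the members, up to 4 per list and comparison that passed or had the largest differences, and the 10 genes most like the members' mean. Ifng, Il17a, Prf1, Zap70, Xist, Eif2s3y, P2ry12 and Cx3cr1 fall outside this rule and were chosen after their values were seen. Alternatives were the pseudocount (1, 64), the filter (none, 70th percentile), quantile normalization, centring, mean of probe sets, a trended prior, leaving out each array or the p50 pair, and the floor percentile. Protein sequences were not used here, and the knocked-out gene is not reported here.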

Additional observations from a re-analysis of the deposited data

Results flagged for a closer look

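Some differences between states had opposite signs in the icKO and the control genotype. With 1 array at each end, the difference between the genotypes was not tested for these pairs. Values are log2 differences, all of them between levels under the floor. In EAE minus naive these were Cd3g (0.44 in icKO, -0.024 in control, apart by 0.46), Cd2 (0.41 in icKO, -0.05 in control, apart by 0.46), Cd8a (-0.075 in icKO, 0.16 in control, apart by -0.24), Cd4 (0.02 in icKO, -0.13 in control, apart by 0.15), Gzma (0.83 in icKO, -0.23 in control, apart by 1.06) and Gzmb (0.63 in icKO, -0.23 in control, apart by 0.86). In EAE IGU minus naive these were Nkg7 (0.10 in icKO, -0.046 in control, apart by 0.14) and Gzma (0.30 in icKO, -0.13 in control, apart by 0.43). In EAE p50 minus naive these were Cd3e (-0.069 in icKO, 0.19 in control, apart by -0.26), Cd2 (0.05 in icKO, -0.23 in control, apart by 0.28), Nkg7 (0.012 in icKO, -0.07 in control, apart by 0.082), Gzma (0.15 in icKO, -0.023 in control, apart by 0.17) and Gzmb (0.16 in icKO, -0.047 in control, apart by 0.21). In EAE IGU minus EAE these were Cd2 (-0.31 in icKO, 0.36 in control, apart by -0.67), Cd8a (0.10 in icKO, -0.16 in control, apart by 0.26), Nkg7 (0.092 in icKO, -0.36 in control, apart by 0.45) and Gzma (-0.53 in icKO, 0.10 in control, apart by -0.63). In EAE p50 minus EAE these were Cd8a (0.55 in icKO, -0.076 in control, apart by 0.62), Nkg7 (0.0057 in icKO, -0.38 in control, apart by 0.38), Gzma (-0.68 in icKO, 0.20 in control, apart by -0.89) and Gzmb (-0.47 in icKO, 0.18 in control, apart by -0.65). Comparisons with the same naive or EAE arrays share them. The widest gap was that of Gzma in EAE minus naive.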

How the results depend on the processing

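The count of members that passed was 0 in all 10 comparisons under every alternative run, except EAE minus naive with arrays centred on the median of the olfactory receptor genes, chosen after seeing the data, where it was 1 (Cd3d, 0.78, limma adjusted p = 0.0336). The adjusted p of Cd3d in that comparison ran from 0.0336 to 0.386 over the alternatives, and without the icKO EAE array Cd3d was below the filter; the cause of these shifts was not tested. No level was above the floor at the 90th, 95th or 99th percentile. Of 789 recomputed member differences, 22 turned sign on leaving out 1 array and 5 under other settings. The 5 were Nkg7 in EAE p50 minus naive (0.047 with quantile normalization, 0.049 with median centring, 0.12 with olfactory centring), Cd3g in EAE IGU minus naive (0.089) and Cd3d in EAE p50 minus naive (0.019), both with olfactory centring. Leaving out 1 array at a time gave these ranges for the differences that turned sign. In EAE minus naive the ranges were Cd8a -0.14 to 0.23, Nkg7 -0.031 to 0.35 and Gzmb -0.014 to 0.56. In EAE IGU minus naive the ranges were Cd3g -0.15 to 0.086, Cd8a -0.015 to 0.043, Nkg7 -0.083 to 0.13 and Gzma -0.19 to 0.36. In EAE p50 minus naive the ranges were Cd3e -0.15 to 0.27, Nkg7 -0.10 to 0.039, Gzma -0.21 to 0.34 and Gzmb -0.16 to 0.27. In EAE IGU minus EAE the ranges were Cd8a -0.22 to 0.16 and Nkg7 -0.32 to 0.057. In EAE p50 minus EAE the ranges were Nkg7 -0.38 to 0.0024. In icKO minus control the ranges were Cd3g -0.045 to 0.11, Cd8a -0.18 to 0.022 and Gzmb -0.12 to 0.16. Over all genes, the count passing in EAE minus naive was 678, against 267 with quantile normalization, 231 without the p50 pair, 1671 with olfactory centring and 0 to 615 on leaving out 1 array, with 0 where a naive or EAE array was left out. In EAE p50 minus naive it was 145, against 108 to 928 over the other settings and 50 to 221 on leaving out 1 array, and in EAE p50 minus EAE 492, against 345 to 966 and 67 to 428. In EAE IGU minus naive it was 1, against 0 to 12, and for the genotype term of EAE alone 0, against up to 20. No paired analysis was possible because each group has 1 array and the labels carry no replicate numbers. A term for icKO in a state could not be fitted without an array of that state. Intensities near those of the olfactory receptor genes limit what these arrays can show of the 9 genes.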
